A study of Mus musculus with 12 samples.

Results

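Type I interferon effector genes, the genes that a cell switches on under type I interferon to block viruses, were followed in mouse corpus callosum, the myelinated tract that joins the cerebral hemispheres. Their membership was set by name, as a list of 44 symbols of interferon-induced antiviral effectors which holds no IRF or STAT factors and no GTPases other than the Mx proteins. Of these, 43 stood in the deposited table of 15584 genes, and all 43 were among the 13759 genes tested, while Oas3 was not analysed here. The 12 RNA-seq libraries fell into 4 groups of 3. WT Ctrl was tissue of wild-type mice without cuprizone, and WT CPZ was tissue of wild-type mice in the cuprizone model. AHR CKO Ctrl and AHR CKO CPZ were the same for mice that lack AHR, the aryl hydrocarbon receptor, in microglia, the macrophages that reside in the brain. Cuprizone is a copper chelator that kills oligodendrocytes, the myelin-forming cells, and activates microglia and astrocytes. The dose and length of cuprizone, the Cre line, the strain, sex and age, and any allele carried by both genotypes were not given in the sources used here. Nor do the labels tell whether replicates of a group were separate animals, so the p-values reflect only the spread among these libraries, which can be technical.

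Type I interferons bind the receptor pair IFNAR1 and IFNAR2, whose kinases JAK1 and TYK2 phosphorylate STAT proteins. These join IRF9 and bind interferon-stimulated response elements (ISRE) in the promoters of effector genes, among them those for IFIT proteins, oligoadenylate synthetases, ISG15 and Mx proteins. IRF factors bind related elements, so part of this set can also be switched on without interferon. In the brain, microglia and astrocytes both respond to interferon and can carry such a signature when myelin is damaged.

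The promoters of 5 genes are shown because they carry the core of the ISRE in different forms, or lack it in the window. The letters are the 200 bases before the transcription start, read 5′ to 3′ on the gene's strand, from RefSeq on GRCm38.p6. Capitals mark each match to the core, which is GAAA, any 2 bases, and GAAA again, or on the other strand TTTC, any 2 bases, and TTTC. Matches that overlap run together.
Isg15, chr4:156200819-156201018, minus strand: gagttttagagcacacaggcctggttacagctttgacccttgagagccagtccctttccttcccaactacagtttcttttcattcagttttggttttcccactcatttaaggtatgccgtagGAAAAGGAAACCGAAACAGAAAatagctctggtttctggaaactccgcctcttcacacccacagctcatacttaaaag
Ifit1, chr19:34640689-34640888, plus strand: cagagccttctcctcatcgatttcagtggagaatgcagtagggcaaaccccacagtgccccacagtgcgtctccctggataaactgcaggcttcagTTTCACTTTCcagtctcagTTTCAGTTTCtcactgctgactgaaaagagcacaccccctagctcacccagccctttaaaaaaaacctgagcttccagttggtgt
Ifit3, chr19:34583329-34583528, plus strand: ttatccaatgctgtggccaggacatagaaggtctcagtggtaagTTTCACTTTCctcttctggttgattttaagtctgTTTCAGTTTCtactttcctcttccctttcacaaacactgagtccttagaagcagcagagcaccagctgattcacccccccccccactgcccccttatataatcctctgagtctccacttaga
Oas1a, chr5:120907526-120907725, minus strand: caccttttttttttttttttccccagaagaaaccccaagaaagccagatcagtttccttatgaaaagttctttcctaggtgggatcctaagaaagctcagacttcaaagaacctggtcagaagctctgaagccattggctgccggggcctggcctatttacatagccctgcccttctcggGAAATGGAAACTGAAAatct
Oasl2, chr5:114896734-114896933, plus strand: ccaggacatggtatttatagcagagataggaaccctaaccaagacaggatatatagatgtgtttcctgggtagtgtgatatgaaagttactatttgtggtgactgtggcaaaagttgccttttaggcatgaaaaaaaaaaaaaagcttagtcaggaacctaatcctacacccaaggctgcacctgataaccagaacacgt
Isg15 held 3 overlapping matches, Oas1a 2 overlapping matches next to the start, and Ifit1 and Ifit3 2 separate matches each on the opposite strand. The Oasl2 window held none, which says only that these letters are not in it.

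RefSeq promoter windows of 300 bases (250 before and 50 after the start) matched 32 of the 44 symbols. The ISRE core stood in 14 of these 32 genes (43.8%), against 3.99% of the 27025 genes with such a window, searching both strands. The gamma-activated sequence TTCNNNGAA, a site used in interferon gamma signalling, stood in 7 of the 32 (21.9%), against 9.55% of the genes. Several members are neighbours in the genome (GENCODE M21, GRCm38). Ifit1, Ifit2, Ifit3 and I830012O16Rik, which RefSeq lists as a synonym of Ifit3b, lie within 99.3 kb of chromosome 19, and Oas1a, Oas1b and Oas2 within 177.2 kb of chromosome 5. Dtx3l and Parp9 overlap by 682 bases on opposite strands. Of the 50-base words in Ifit3 transcripts, 51.2% also stand in Ifit3b, so the authors' counting could have split reads between them and their separate values are uncertain.

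FPKM, a fragment count scaled by transcript length and by the size of the library, summed to between 447156 and 519470 per library. The number of reads is unknown from these values. Ahr stood at 1.41 to 2.57 FPKM in the AHR CKO libraries and 1.48 to 2.22 in the WT libraries, and its level was not called different between genotypes (limma adjusted p = 0.9705 in control tissue and 0.937 under cuprizone). This checks nothing, since bulk tissue holds many cells outside the microglia and the deleted part is not given. Cx3cr1, a microglial receptor gene, set 3 AHR CKO libraries apart. It stood at 1.05, 9.598 and 0.801 FPKM in AHR CKO Ctrl replicates 1, 2 and 3 and at 1.16, 22.7 and 29.6 in AHR CKO CPZ, against 24.9, 24.4 and 22.6 in WT Ctrl and 69.4, 49.4 and 58.7 in WT CPZ. Replicates 1 and 3 of AHR CKO Ctrl and replicate 1 of AHR CKO CPZ were thus near 1 FPKM while the other libraries lay above 9. Counts of members called are also given without these 3 libraries, a choice made after seeing the data, with 1 library then left in AHR CKO Ctrl.

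The interferon effector genes were higher with cuprizone in both genotypes. A gene was called where the limma test on log2(FPKM + 1) gave an adjusted p (Benjamini-Hochberg, over all 13759 genes) under 0.05. In WT, 31 of the 43 genes rose and 0 fell, against 9.08% of all tested genes called higher and 7.81% lower. In AHR CKO, all 43 tested genes rose, against 7.22% of all tested genes called higher and 2.98% lower. The median log2 change was 0.86 in WT and 1.25 in AHR CKO, beside −0.04 and −0.01 over all genes. The 3 cuprizone libraries lay above the 3 control libraries for 36 of the 43 genes in WT (background 34.7% of all genes without overlap between groups, in either direction) and for 43 in AHR CKO (background 28.9%). A filter on low values shaped these shares, since 13 of the 43 genes (Oas1a, Oas1b, Oas2, Oasl1, Dhx58, Ddx60, Zbp1, Parp14, Mx1, Mx2, Rsad2, Isg20 and Ifi44) passed it only through their cuprizone libraries. Passing through the group where a gene is high favours a difference, so counts that include these 13 are a description. Of the 13, 8 were called higher in WT and 13 in AHR CKO. Among the 30 that passed on the control libraries alone, 23 rose in WT and 30 in AHR CKO, and without the 3 libraries of low Cx3cr1 25 rose in WT and 11 in AHR CKO.

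**Figure D1:**
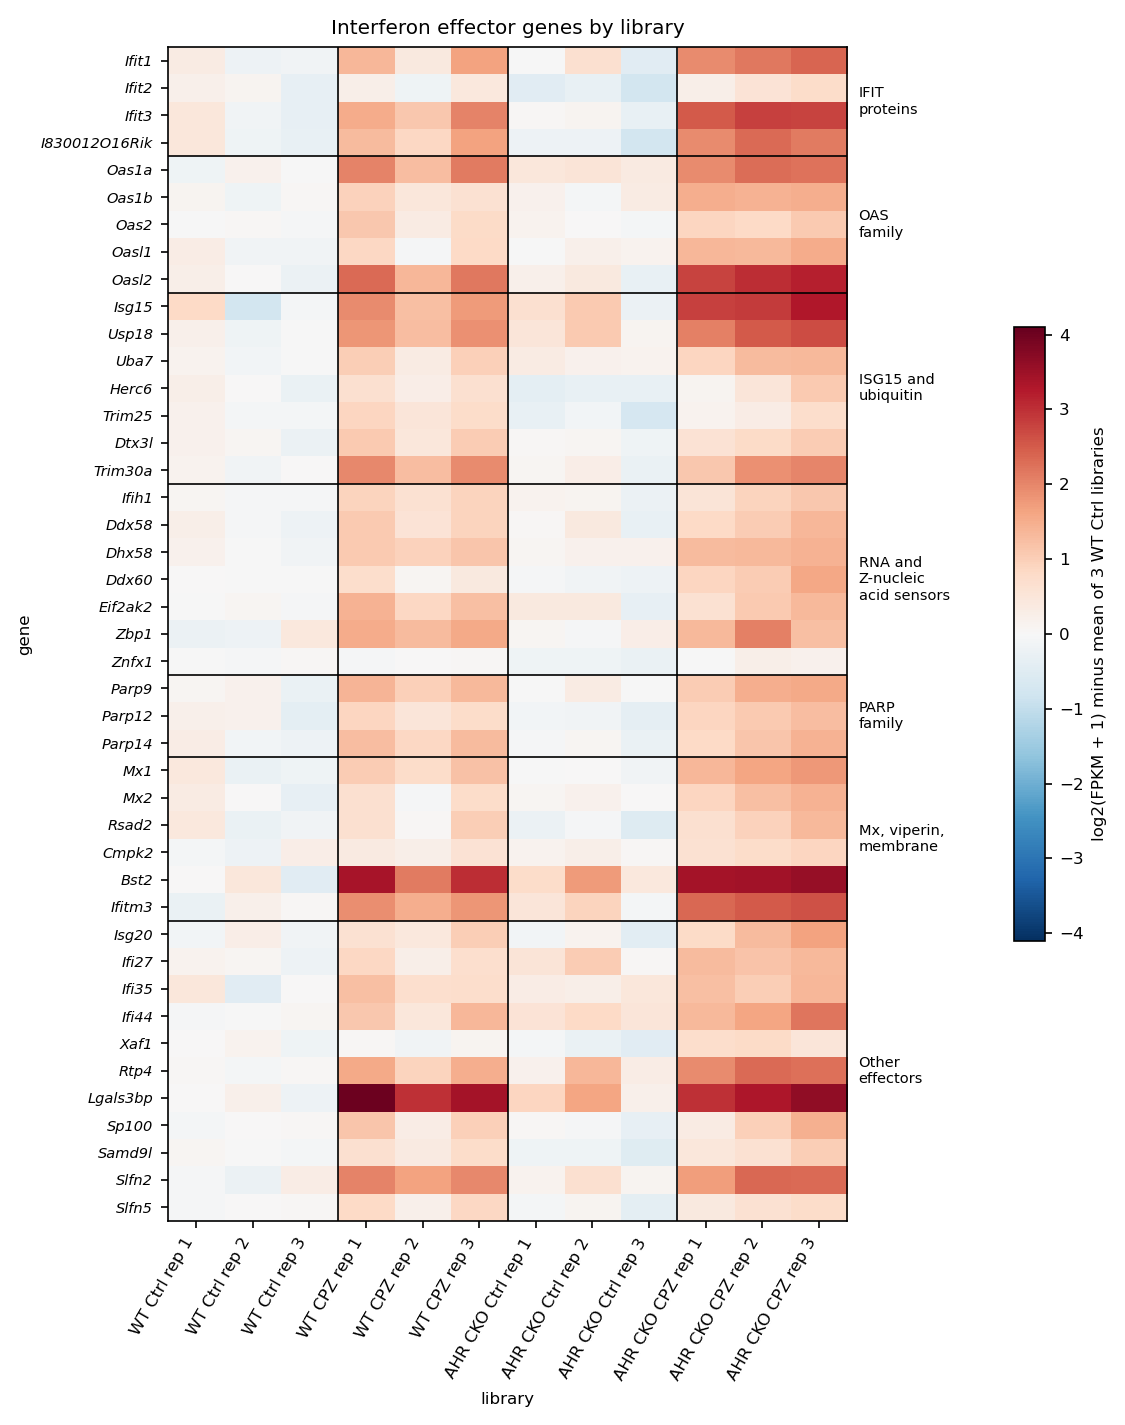
Each row is 1 of the 43 interferon effector genes by role and each column 1 of the 12 libraries, coloured by log2(FPKM + 1) minus the mean of the 3 WT Ctrl libraries. The cuprizone columns are redder in both genotypes, WT CPZ replicate 2 is paler than the other WT CPZ libraries, and Znfx1 and Xaf1 stay pale in WT CPZ.

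Libraries differed within groups across the whole set. WT CPZ replicate 2 was the lowest of its group in 42 of the 43 genes, with a median log2(FPKM + 1) level of 1.89 against 2.62 and 2.55 in replicates 1 and 3. In AHR CKO CPZ, replicate 1 was the lowest in 36 genes (median level 2.11 against 2.54 and 2.65). In AHR CKO Ctrl, replicate 3 was the lowest in 35 genes and replicate 2 the highest in 28. Without WT CPZ replicate 1 the WT count of members called higher was 20, and without WT CPZ replicate 2 it was 38. Calls of 11 genes in WT (Ifit1, Oas1b, Oas2, Uba7, Trim25, Ddx58, Parp12, Ifi35, Ifi44, Samd9l and Slfn5) were lost without WT Ctrl replicate 1, 2 or 3, WT CPZ replicate 1 or 3, or AHR CKO CPZ replicate 2 (largest adjusted p = 0.133). In AHR CKO, 10 calls (Herc6, Trim25, Dtx3l, Eif2ak2, Znfx1, Ifi27, Ifi35, Ifi44, Sp100 and Slfn5) were lost without at least 1 of the 6 AHR CKO libraries, WT CPZ replicate 3 or WT Ctrl replicate 1 or 2 (largest adjusted p = 0.138). The other 20 calls in WT and 33 in AHR CKO were kept without each of the 12 libraries in turn. Without the 3 libraries of low Cx3cr1, more members were called in WT and fewer in AHR CKO. Their median log2 change in AHR CKO was then 1.20, against 1.25 with all 12 libraries.

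The IFIT genes, whose proteins bind foreign RNA ends and block translation, rose in 3 of 4 cases in WT and 4 of 4 in AHR CKO. Without the libraries of low Cx3cr1 these counts were 3 and 2 (Ifit3 and I830012O16Rik in AHR CKO). Ifit3 stood at 10.02, 6.14 and 5.28 FPKM in the WT Ctrl libraries and 21.9, 16.02 and 31.7 in WT CPZ. It stood at 7.11, 7.57 and 5.38 in AHR CKO Ctrl and 44.01, 53.6 and 53.4 in AHR CKO CPZ. Every cuprizone library lay above every control library, and the AHR CKO CPZ libraries lay above all WT CPZ libraries. The ratio of means was 3.25-fold in WT (log2 change 1.56 ± 0.24 SE, adjusted p = 0.000632) and 7.53-fold in AHR CKO (2.75 ± 0.24, adjusted p = 2.26e-05). Ifit1 stood at 2.52, 1.43 and 1.52 FPKM in WT Ctrl, 6.11, 2.71 and 7.75 in WT CPZ, 1.75, 3.34 and 1.01 in AHR CKO Ctrl and 9.63, 11.4 and 13.5 in AHR CKO CPZ. WT CPZ replicate 2 was only just above the highest WT Ctrl library, while the AHR CKO groups were far apart. I830012O16Rik stood at 5.595, 3.27 and 2.93 FPKM in WT Ctrl, 10.9, 7.56 and 13.98 in WT CPZ, 3.201, 3.12 and 1.88 in AHR CKO Ctrl and 17.3, 22.9 and 19.9 in AHR CKO CPZ, and rose in both genotypes (adjusted p = 0.00264 and 4.22e-05). Its groups followed the order of those of Ifit3, with which it shares sequence. Ifit2 was the exception in WT, with 6.17, 5.77 and 3.95 FPKM in WT Ctrl and 6.398, 4.48 and 7.38 in WT CPZ, which overlapped (log2 change 0.17, adjusted p = 0.626). In AHR CKO it rose from 3.497, 3.998 and 2.68 to 6.41, 8.19 and 9.51 (adjusted p = 0.00478).

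Oligoadenylate synthetases sense double-stranded RNA and make the messenger that activates RNase L, and OASL proteins are their relatives. Of the 5 tested family members only Oasl2 passed the filter on control libraries alone, and it rose in both genotypes. The other 4 (Oas1a, Oas1b, Oas2 and Oasl1) passed it through their cuprizone libraries, and Oasl1 in WT was the 1 case among them with no call. Without the libraries of low Cx3cr1, Oas2 and Oasl1 lost their calls in AHR CKO. Oasl2 stood at 2.52, 2.03 and 1.53 FPKM in WT Ctrl and 14.03, 6.69 and 12.5 in WT CPZ, and at 2.49, 2.94 and 1.44 in AHR CKO Ctrl and 19.4, 23.3 and 26.4 in AHR CKO CPZ. All cuprizone libraries lay above all control libraries, and the 2 cuprizone groups did not overlap. Its mean rose 5.45-fold in WT (log2 change 1.95, adjusted p = 0.000156) and 10.1-fold in AHR CKO (2.89, adjusted p = 2e-05), the largest log2 change of any member there. Oas1a stood at 0.194, 0.5199 and 0.312 FPKM in WT Ctrl, 4.49, 2.23 and 4.87 in WT CPZ, 0.838, 0.909 and 0.737 in AHR CKO Ctrl and 4.14, 5.59 and 5.26 in AHR CKO CPZ. It rose in both genotypes (log2 change 1.82 in WT and 1.71 in AHR CKO, adjusted p = 6.73e-05 and 0.000201), and the 2 cuprizone groups overlapped. Oas1b, annotated as a polymorphic pseudogene in GENCODE, stood at 0.403, 0.147 and 0.324 FPKM in WT Ctrl, 1.48, 0.771 and 0.973 in WT CPZ, 0.457, 0.225 and 0.616 in AHR CKO Ctrl and 2.64, 2.47 and 2.58 in AHR CKO CPZ. Its AHR CKO CPZ libraries lay within a narrow range above all others. Oasl1 stood at 0.442, 0.0397 and 0.0373 FPKM in WT Ctrl and 1.08, 0.122 and 1.03 in WT CPZ, where replicate 2 fell among the control libraries and the change did not pass (adjusted p = 0.136). In AHR CKO it rose from 0.153, 0.343 and 0.284 to 1.99, 1.89 and 2.3 (adjusted p = 0.00303).

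ISG15 is a ubiquitin-like protein that is joined to targets through the E1 enzyme UBA7 and removed by USP18, which also dampens the interferon receptor. In this group 6 of 7 genes rose in WT and 7 of 7 in AHR CKO, or 6 and 2 (Usp18 and Trim30a in AHR CKO) without the libraries of low Cx3cr1. Isg15 stood at 5.45, 1.15 and 2.47 FPKM in WT Ctrl, 13.01, 7.57 and 11.1 in WT CPZ, 4.76, 6.67 and 2.07 in AHR CKO Ctrl and 24.1, 25.5 and 34.1 in AHR CKO CPZ. The control libraries spread widely, and the AHR CKO CPZ libraries were higher than every other library. The rise was 3.49-fold in WT (log2 change 1.64 ± 0.38, adjusted p = 0.0108) and 6.201-fold in AHR CKO (2.48 ± 0.38, adjusted p = 0.00119). Usp18 stood at 1.21, 0.686 and 0.892 FPKM in WT Ctrl, 5.67, 3.601 and 5.99 in WT CPZ, 1.71, 2.99 and 1.08 in AHR CKO Ctrl and 6.95, 9.83 and 11.3 in AHR CKO CPZ. Cuprizone and control libraries did not overlap in either genotype (adjusted p = 0.000513 and 0.000381). Trim30a, a TRIM protein gene of macrophages, rose from 1.06 ± 0.221 to 5.97 ± 1.75 FPKM in WT and from 1.12 ± 0.407 to 5.73 ± 2.01 in AHR CKO (mean ± SD, n = 3, adjusted p = 0.000414 and 0.00106 by limma). Dtx3l, an E3 ligase that works with PARP9, rose by a log2 change of 0.86 in WT (adjusted p = 0.00741) and 0.84 in AHR CKO (adjusted p = 0.0137). Herc6, the mouse ISG15 ligase, did not pass in WT (log2 change 0.53, adjusted p = 0.124) and rose in AHR CKO (0.90, adjusted p = 0.0195).

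Sensors of RNA and of Z-form nucleic acid rose in 5 of 7 cases in WT and 7 of 7 in AHR CKO, of which Dhx58, Ddx60 and Zbp1 passed the filter through their cuprizone libraries. Without the libraries of low Cx3cr1, 5 rose in WT and 4 in AHR CKO (Ifih1, Dhx58, Ddx60 and Zbp1). Ifih1, which encodes MDA5, stood at 1.36, 1.16 and 1.17 FPKM in WT Ctrl, 3.17, 2.44 and 3.23 in WT CPZ, 1.45, 1.39 and 0.893 in AHR CKO Ctrl and 2.24, 3.18 and 3.76 in AHR CKO CPZ. Ddx58, which encodes RIG-I, stood at 1.89, 1.34 and 1.12 FPKM in WT Ctrl, 4.14, 2.55 and 3.53 in WT CPZ, 1.53, 2.22 and 0.946 in AHR CKO Ctrl and 3.32, 3.97 and 5.198 in AHR CKO CPZ. For both sensors all cuprizone libraries lay above all control libraries, and the 2 cuprizone groups overlapped. Eif2ak2, which encodes the translation-blocking kinase PKR, stood at 1.49, 1.65 and 1.44 FPKM in WT Ctrl, 5.82, 3.501 and 4.91 in WT CPZ, 2.33, 2.32 and 0.983 in AHR CKO Ctrl and 2.88, 4.26 and 5.38 in AHR CKO CPZ. Zbp1, a sensor of Z-form nucleic acid that can start necroptosis, stood at 0.246, 0.277 and 0.986 FPKM in WT Ctrl, 3.19, 2.63 and 3.29 in WT CPZ, 0.539, 0.421 and 0.762 in AHR CKO Ctrl and 2.73, 5.13 and 2.48 in AHR CKO CPZ, where replicate 2 was above all other libraries. The adjusted p values in WT and AHR CKO were 0.00372 and 0.00478 for Ifih1, 0.0157 and 0.00811 for Ddx58, 0.00383 and 0.0352 for Eif2ak2, and 0.000757 and 0.001297 for Zbp1. Dhx58, which encodes the RIG-I relative LGP2, had the smallest adjusted p of the group in both genotypes (0.000106 and 8.33e-05), at a log2 change of 1.05 and 1.20. Ddx60, a helicase gene, stood at 0.36, 0.326 and 0.318 FPKM in WT Ctrl, 1.18, 0.415 and 0.771 in WT CPZ, 0.285, 0.21 and 0.157 in AHR CKO Ctrl and 1.44, 1.77 and 3.01 in AHR CKO CPZ. Its WT groups lay close without overlap and the change did not pass (adjusted p = 0.202), while it rose in AHR CKO (adjusted p = 0.00101). Znfx1, a helicase gene with a high level in control tissue, stood at 18.4, 17.96 and 19.03 FPKM in WT Ctrl and 17.8, 18.9 and 18.9 in WT CPZ, which overlapped (log2 change 0.01, adjusted p = 0.974). In AHR CKO it rose from 16.2, 16.03 and 15.2 to 18.4, 22.05 and 21.2 (log2 change 0.36, adjusted p = 0.01502), the smallest rise of the 43.

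All 3 genes of interferon-induced ADP-ribosyltransferases, Parp9, Parp12 and Parp14, rose in both genotypes, and Parp14, which passed the filter through its cuprizone libraries, lost its call in AHR CKO without the libraries of low Cx3cr1. Parp9, the partner of Dtx3l, rose from 1.42 ± 0.394 to 4.69 ± 0.8701 FPKM in WT and from 1.58 ± 0.359 to 5.19 ± 1.12 in AHR CKO (mean ± SD, n = 3, limma adjusted p = 0.000474 and 0.000738). Parp12 had a log2 change of 0.71 in WT (adjusted p = 0.0109) and 1.28 in AHR CKO (adjusted p = 0.000318). Parp14 had 1.14 (adjusted p = 0.00156) and 1.22 (adjusted p = 0.00166).

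Among genes of Mx proteins, viperin and membrane restriction factors, 3 of 6 rose in WT and 6 of 6 in AHR CKO, of which Mx1, Mx2 and Rsad2 passed the filter through their cuprizone libraries. Without the libraries of low Cx3cr1, 3 rose in WT and 2 in AHR CKO (Mx1 and Ifitm3). Bst2, which encodes tetherin, the protein that holds budding viruses at the membrane, stood at 5.56, 8.005 and 3.704 FPKM in WT Ctrl, 67.02, 27.8 and 52.3 in WT CPZ, 10.1, 21.1 and 7.75 in AHR CKO Ctrl and 68.8, 70.4 and 75.8 in AHR CKO CPZ. Ifitm3, which blocks virus entry from endosomes, stood at 20.4, 28.8 and 25.6 FPKM in WT Ctrl, 94.4, 71.2 and 90.1 in WT CPZ, 35.7, 47.1 and 23.3 in AHR CKO Ctrl and 131, 145 and 157 in AHR CKO CPZ. For both genes the cuprizone libraries lay above all control libraries and the AHR CKO CPZ libraries above all WT CPZ libraries. The fold rise in WT and AHR CKO was 8.52 and 5.52 for Bst2 (adjusted p = 0.000137 and 0.000655) and 3.42 and 4.08 for Ifitm3 (adjusted p = 0.000116 and 7.2e-05). Mx1, a dynamin-like GTPase gene, stood at 0.7296, 0.0649 and 0.124 FPKM in WT Ctrl, 1.65, 1.13 and 1.92 in WT CPZ, 0.2603, 0.286 and 0.152 in AHR CKO Ctrl and 2.27, 2.89 and 3.32 in AHR CKO CPZ. It rose in both genotypes without overlap (adjusted p = 0.00379 and 0.000224). The 3 genes that did not pass in WT were Mx2, Rsad2 and Cmpk2. Rsad2, which encodes viperin, stood at 1.39, 0.476 and 0.597 FPKM in WT Ctrl and 1.804, 0.8398 and 2.61 in WT CPZ, which overlapped (adjusted p = 0.175). It rose from 0.497, 0.714 and 0.242 in AHR CKO Ctrl to 1.797, 2.46 and 3.49 in AHR CKO CPZ (adjusted p = 0.00998). Cmpk2, the nucleotide kinase gene that lies beside Rsad2 on chromosome 12, had a log2 change of 0.40 in WT (adjusted p = 0.0556) and 0.62 in AHR CKO (adjusted p = 0.0103). Mx2, annotated as a polymorphic pseudogene, had 0.45 (adjusted p = 0.209) and 1.10 (adjusted p = 0.00827).

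**Figure D2:**
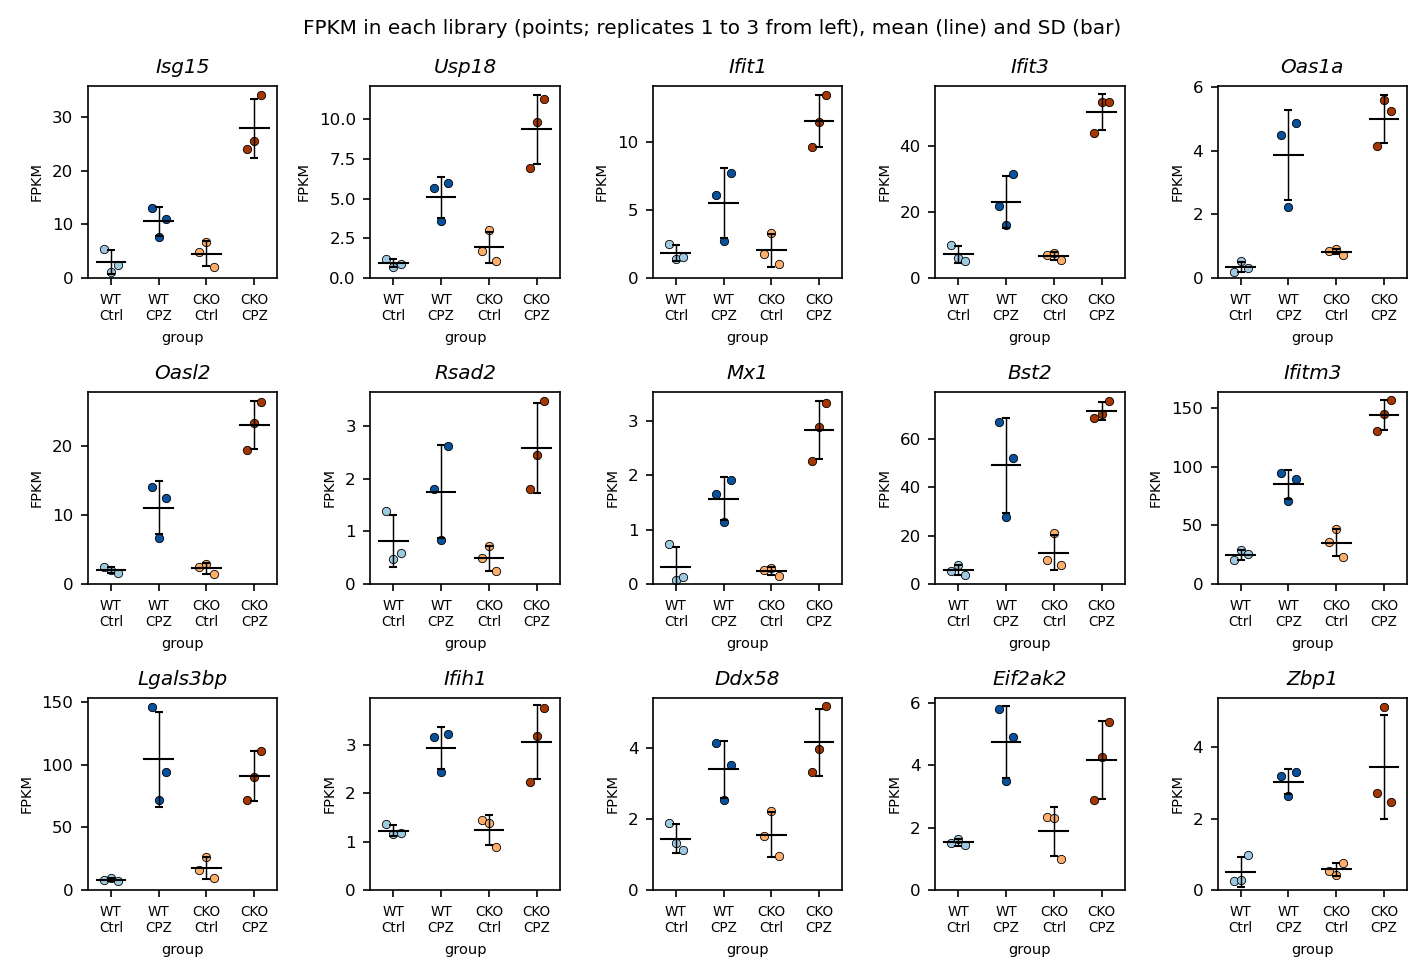
FPKM (y axis, each panel with its own scale from 0) of 15 interferon effector genes in the 4 groups (x axis, CKO standing for AHR CKO), with 1 point per library, the mean as a line and the SD as a bar (n = 3). The mean is higher with cuprizone in every panel and genotype, though Rsad2 was not called in WT. For several genes, among them Isg15, Ifit1, Ifit3, Oasl2 and Ifitm3, the AHR CKO CPZ points lie above all WT CPZ points.

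Of the 11 other effectors, 7 rose in WT and 11 in AHR CKO, of which Isg20 and Ifi44 passed the filter through their cuprizone libraries. Without the libraries of low Cx3cr1, 10 rose in WT and 3 in AHR CKO (Isg20, Lgals3bp and Slfn2). Lgals3bp, which encodes a secreted galectin-binding glycoprotein, stood at 8.12, 9.42 and 6.81 FPKM in WT Ctrl, 146, 71.8 and 94.5 in WT CPZ, 15.7, 26.6 and 9.36 in AHR CKO Ctrl and 71.5, 90.01 and 111 in AHR CKO CPZ. Its cuprizone libraries lay far above the controls in both genotypes, and the 2 cuprizone groups overlapped. It had the largest log2 change of the 43 genes in WT (12.8-fold, log2 change 3.48, adjusted p = 1.76e-05) and rose 5.27-fold in AHR CKO (adjusted p = 0.000397). Slfn2, a schlafen gene of immune cells, rose from 1.13 ± 0.412 to 6.78 ± 1.05 FPKM in WT and from 1.65 ± 0.581 to 8.32 ± 2.13 in AHR CKO (mean ± SD, n = 3, limma adjusted p = 6.62e-05 and 0.000163). Rtp4, a chaperone of receptors, rose in WT (log2 change 1.33, adjusted p = 0.00421) and in AHR CKO (1.56, adjusted p = 0.00236). Xaf1, a pro-apoptotic gene, stood at 2.46, 2.78 and 1.98 FPKM in WT Ctrl and 2.48, 2.04 and 2.69 in WT CPZ, which overlapped fully (log2 change 0.00112, adjusted p = 0.997). In AHR CKO it went from 2.21, 1.78 and 1.46 to 4.57, 4.799 and 3.797, with all cuprizone libraries above all controls (log2 change 0.94, adjusted p = 0.000958). Isg20, an exonuclease gene, Ifi27, a mitochondrial protein gene, and Sp100, a gene of nuclear bodies, did not pass in WT (adjusted p = 0.0666, 0.0814 and 0.0555) and rose in AHR CKO (adjusted p = 0.00239, 0.0496 and 0.02698).

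By level per transcript length the order of the genes changed with cuprizone. In WT Ctrl the highest mean FPKM levels of the set were those of Ifi27 (44.3), Ifitm3 (24.9) and Znfx1 (18.5). In WT CPZ they were those of Lgals3bp (104), Ifitm3 (85.2) and Ifi27 (68.2), and in AHR CKO CPZ those of Ifitm3 (144), Ifi27 (107.5) and Lgals3bp (90.9). Neighbours in these orders were not tested against each other.

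In control tissue the genotypes did not differ beyond the threshold in any member. Of 43 genes, 0 were called in either direction by limma, against 1.42% of all tested genes called higher and 4.76% lower in AHR CKO, and 9 had an unadjusted p under 0.05 (7 higher and 2 lower; background 27.6% of all genes). Of the 43 differences, 25 were positive and 18 negative, with a median log2 difference of 0.05 beside −0.03 over all genes. The groups did not overlap for 8 genes (background 35.4%). Lgals3bp, at 17.2 ± 8.72 against 8.12 ± 1.303 FPKM (mean ± SD, n = 3, limma log2 difference 0.90, adjusted p = 0.103), and Bst2, at 12.98 ± 7.11 against 5.76 ± 2.16 (log2 difference 0.98, adjusted p = 0.105), had the smallest p of the set. For each, AHR CKO Ctrl replicate 2 was the highest control library, and the groups overlapped. Without the 3 libraries of low Cx3cr1 the count was also 0.

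Under cuprizone, 15 of the 43 genes were higher in AHR CKO than in WT and 0 were lower, against 9.14% of all tested genes called higher and 10.8% lower. The median log2 difference was 0.36, beside 0.002 over all genes, and 36 of the 43 differences were positive. The 2 groups did not overlap for 19 genes (44.2%), close to the background of 38.8%. The 15 genes held 3 of 4 IFIT genes, 3 of 5 of the OAS family, 2 of 7 of the ISG15 and ubiquitin group (Isg15 and Usp18), 1 of 7 sensors (Ddx60), 0 of 3 PARP genes, 2 of 6 of the Mx, viperin and membrane group (Mx2 and Ifitm3) and 4 of 11 other effectors (Ifi27, Ifi44, Xaf1 and Rtp4). Of these, Oas1b, Oasl1, Ddx60, Mx2 and Ifi44 passed the filter only through their cuprizone libraries, so their calls are a description. Among the 30 genes that passed the filter on control libraries alone, 10 were called higher, or 3 without the libraries of low Cx3cr1.

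The calls of smallest adjusted p were those of Oas1b, Ifit3, Xaf1 and Oasl2. Oas1b passed the filter only through its cuprizone libraries, reaching 1 FPKM in the 3 AHR CKO CPZ libraries and in WT CPZ replicate 1 (1.48 FPKM). Mean FPKM in AHR CKO CPZ was 2.39 times that in WT CPZ for Oas1b (log2 difference 0.80 ± 0.16 SE, adjusted p = 0.00965), 2.17 times for Ifit3 (1.13 ± 0.24, adjusted p = 0.0114), 1.83 times for Xaf1 (0.66 ± 0.14, adjusted p = 0.0117) and 2.08 times for Oasl2 (1.04 ± 0.25, adjusted p = 0.0164). All 3 AHR CKO CPZ libraries lay above all 3 WT CPZ libraries in each of these genes. Isg15 had the largest difference of the set on log2(FPKM + 1), with a ratio of FPKM means of 2.64 that was below the 2.77 of Oasl1 (log2 difference of Isg15 1.34 ± 0.38, adjusted p = 0.0313). The other calls were those of Ddx60 (0.77, adjusted p = 0.0209), Oasl1 (0.86, 0.0231), I830012O16Rik (0.86, 0.0268), Ifitm3 (0.76, 0.0277), Mx2 (0.73, 0.0421), Rtp4 (0.85, 0.0429), Ifit1 (1.02, 0.0433), Usp18 (0.77, 0.0453), Ifi27 (0.67, 0.0466) and Ifi44 (0.75, 0.0495), each given as its log2 difference and adjusted p. Mx2 stood at 1.06, 0.652 and 0.308 FPKM in WT Ctrl, 1.59, 0.593 and 1.77 in WT CPZ, 0.7295, 0.843 and 0.663 in AHR CKO Ctrl and 2.06, 2.89 and 3.38 in AHR CKO CPZ, the highest of the 4 groups. The groups of Ifi44 overlapped, and those of the other 14 did not.

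Among the 28 genes with no call, Lgals3bp had a log2 difference of -0.16 (95% interval -0.86 to 0.54), Eif2ak2 -0.16 (-0.66 to 0.34), Trim25 -0.32 (-0.72 to 0.08) and Ifih1 0.03 (-0.32 to 0.38). Mx1, at 0.58 (0.15 to 1.01, adjusted p = 0.05701), and Cmpk2, at 0.34 (0.06 to 0.63, adjusted p = 0.0817), missed the threshold without overlap of the groups. In RefSeq windows, the ISRE core stood in 5 of the 9 matched genes called here and in 8 of the 22 matched and tested genes not called, with Isg15, Ifit1 and Ifit3 among the first and Oas1a among the second, as shown by their sequences above, and Oasl2 called without a match.

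**Figure D3:**
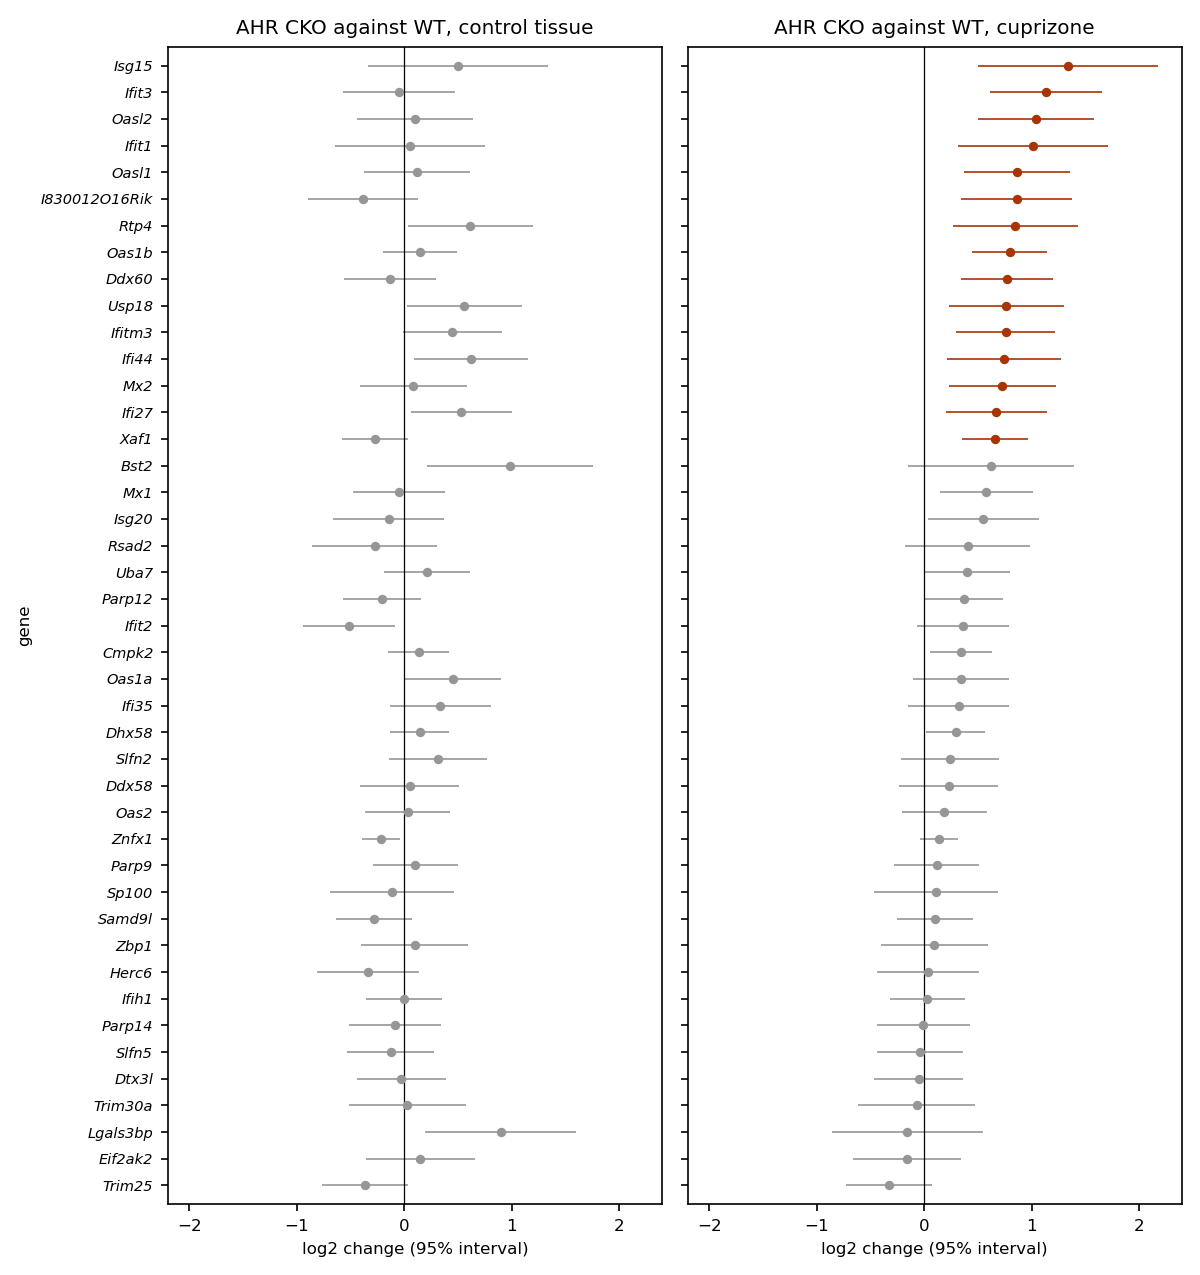
Log2 difference between AHR CKO and WT (x axis, point with 95% interval) for each of the 43 genes (y axis, ordered by the difference under cuprizone) in control tissue (left) and under cuprizone (right). Coloured points are called: 0 in control tissue, and 15 under cuprizone, from Isg15 at 1.34 to Xaf1 at 0.66.

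The number of genotype calls depended on single libraries. The count of 15 fell to 5 without WT CPZ replicate 2, AHR CKO CPZ replicate 1 or AHR CKO CPZ replicate 2, to 6 without WT CPZ replicate 1, to 7 without AHR CKO CPZ replicate 3, to 8 without WT CPZ replicate 3 and to 9 without WT Ctrl replicate 2. The calls of Ifit3, Oas1b, Oasl2 and Xaf1 were kept without each of the 12 libraries in turn, though Oas1b passed the filter only through its cuprizone libraries. The other 11 were kept in 1 to 10 of the 12 cases, each of the 12 libraries ending at least 1 call (largest adjusted p = 0.135). Without the 3 libraries of low Cx3cr1, of the 15 only Usp18, Ifitm3 and Rtp4 kept their calls. The calls of Ifit3, Oas1b, Oasl2 and Xaf1 were among those lost. The median log2 difference of the 43 genes was then 0.46, against 0.36 with all 12 libraries.

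The test of whether cuprizone acted differently in the 2 genotypes called none of the 43 genes. By limma's interaction term, 0 were called in either direction, against 0.0145% of all tested genes called higher and 0.0218% lower, and 12 had an unadjusted p under 0.05 (11 positive and 1 negative; background 9.56% of all genes). A positive term means a larger rise in AHR CKO. It was positive in 34 genes and negative in 9, with a median of 0.21 beside 0.03 over all genes. The smallest p was that of Xaf1 (interaction 0.94 ± 0.20 SE, adjusted p = 0.175), followed by I830012O16Rik (1.25, adjusted p = 0.271) and Ifit3 (1.18, adjusted p = 0.2999). The 1 negative term with an unadjusted p under 0.05 was that of Lgals3bp (-1.05, adjusted p = 0.491). Without the 3 libraries of low Cx3cr1 the count was also 0. Xaf1 alone passed when a library was left out, at adjusted p = 0.0475 without WT Ctrl replicate 3. The 12 genes that rose in AHR CKO and did not pass in WT are thus not shown to differ in their response.

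**Figure D4:**
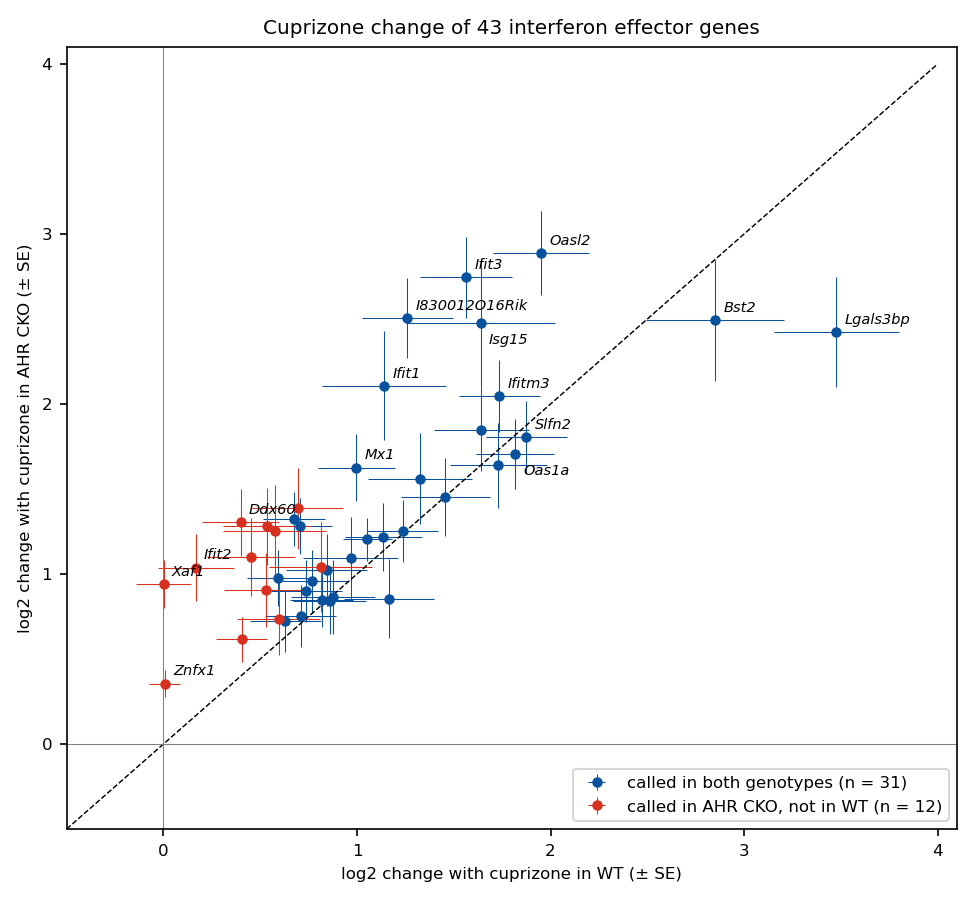
Log2 change with cuprizone of 43 interferon effector genes in WT (x axis) and AHR CKO (y axis), with SE bars and a dashed line of equal change. Lgals3bp and Bst2 lie at the right below the line, and Xaf1, Znfx1 and Ifit2 near 0 in WT, while no gene passed the interaction test.

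The genes that carry and control the interferon signal were counted from lists that hold no effector. Of 39 such genes tested, 22 rose and 0 fell with cuprizone in WT, and 21 rose and 0 fell in AHR CKO, beside 9.08% and 7.22% of all tested genes called higher. Of 11 ligand genes listed, none was analysed here. Of 7 receptor and kinase genes, which include Ifngr1 and Ifngr2 of the interferon gamma receptor, 2 rose in each genotype. These were Ifngr1 and Ifngr2 in WT, and Ifngr1 and Ifnar2 in AHR CKO. Ifnar1, the first chain of the type I receptor, did not pass (log2 change 0.11 in WT, adjusted p = 0.537, and 0.06 in AHR CKO, adjusted p = 0.7898). Ifnar2, the other chain, did not pass in WT (0.40, adjusted p = 0.0528) and rose in AHR CKO (0.69, adjusted p = 0.00463). Of 10 STAT and IRF factors, 7 rose in WT and 8 in AHR CKO. Irf9, the partner of STAT proteins on the ISRE, rose in both (1.19 and 1.10, adjusted p = 0.000115 and 0.000346). Stat2 did not pass in WT (0.40, adjusted p = 0.0656) and rose in AHR CKO (0.55, adjusted p = 0.0231).

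Irf7, the factor that amplifies interferon production, stood at 2.32, 1.49 and 1.44 FPKM in WT Ctrl, 11.7, 5.46 and 12.1 in WT CPZ, 3.42, 5.795 and 2.18 in AHR CKO Ctrl and 21.2, 23.5 and 27.5 in AHR CKO CPZ. Within each genotype the cuprizone libraries lay above all control libraries, and the AHR CKO CPZ libraries lay above all others. It rose in WT (1.91, adjusted p = 0.000648) and in AHR CKO (2.45, adjusted p = 0.000203). Between genotypes under cuprizone, 2 of the 39 were higher and 5 lower in AHR CKO, shares near the background of 9.14% higher and 10.8% lower, so these counts are no result about the list. Irf7 was 1 of the 2 listed genes that were higher in AHR CKO than in WT under cuprizone (1.29, adjusted p = 0.01402), the other being Pias4, an inhibitor of STAT activity (0.28, adjusted p = 0.0386). Lower there were 5 genes, the kinases Jak1 (-0.34, adjusted p = 0.0356) and Jak2 (-0.39, adjusted p = 0.0192), the RNA receptor Tlr7 (-0.69, adjusted p = 0.0472), and the inhibitors Ptpn2 (-0.43, adjusted p = 0.0278) and Pias1 (-0.53, adjusted p = 0.0157). In control tissue 1 of the 39 was called, Jak2, which was lower in AHR CKO (-0.44, adjusted p = 0.0348). Of 15 genes of upstream nucleic acid sensing, 9 rose in WT and 8 in AHR CKO, with Unc93b1, which escorts endosomal Toll-like receptors, at 1.90 and 1.52 (adjusted p = 2.19e-05 and 0.000201). Of 7 inhibitors, 4 rose in WT and 3 in AHR CKO, among them Socs3 (1.02 and 1.43, adjusted p = 0.00137 and 0.0002305) and Ptpn6, a phosphatase of blood cells and microglia (2.28 and 1.94, adjusted p = 1.2e-05 and 6.42e-05). No interaction was called in the 39 genes. Irf7 kept its genotype call under cuprizone without each of the 12 libraries in turn (largest adjusted p = 0.0433) and without the 3 libraries of low Cx3cr1 (adjusted p = 0.0424). The other 6 calls there were kept in 2 to 10 of the 12 cases, and that of Jak2 in control tissue in 6. Of the calls with cuprizone, 19 of 22 in WT (all but Ifngr1, Ikbke and Socs1) and 17 of 21 in AHR CKO (all but Ifngr1, Socs1, Stat2 and Tlr9) were kept without each library. Without the 3 libraries of low Cx3cr1, 21 of the 39 rose in WT and 13 in AHR CKO, and under cuprizone 1 was higher and 0 were lower in AHR CKO than in WT.

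Markers of cell types moved with cuprizone beside the effector genes, and in bulk tissue fewer cells of a type and less RNA per cell cannot be told apart. The 8 microglial markers, all in the table, summed to 210.1 to 221 FPKM in WT Ctrl, 495 to 734 in WT CPZ, 162 to 176 in AHR CKO Ctrl and 254 to 464 in AHR CKO CPZ. Their sum was thus higher with cuprizone in both genotypes and lower in AHR CKO CPZ than in WT CPZ without overlap, the reverse of the effector genes called between genotypes. WT CPZ replicate 2, lowest of its group in the effectors, was also lowest in 7 of these 8 markers, and AHR CKO CPZ replicate 1 had the lowest sum of its group. Under cuprizone, 4 of the 8 were lower in AHR CKO than in WT and 0 higher, against 10.8% and 9.14% of all tested genes. Among the 4 were Csf1r, Fcrls and Sall1, with log2 differences of -0.71, -0.95 and -0.66. Whether these calls hold without AHR CKO CPZ replicate 1 was not tested. The 5 astrocyte markers summed to 452 to 587 FPKM in WT Ctrl, 1472 to 1938 in WT CPZ, 445 to 516 in AHR CKO Ctrl and 1097 to 1853 in AHR CKO CPZ, with 0 of 5 called between the cuprizone groups. The 5 oligodendrocyte markers summed to 8774 to 15941 FPKM in WT Ctrl, 2757 to 3279 in WT CPZ, 8442 to 8979.8 in AHR CKO Ctrl and 3629.9 to 4491 in AHR CKO CPZ. The part of these markers in the interferon results was not tested.

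**Figure D5:**
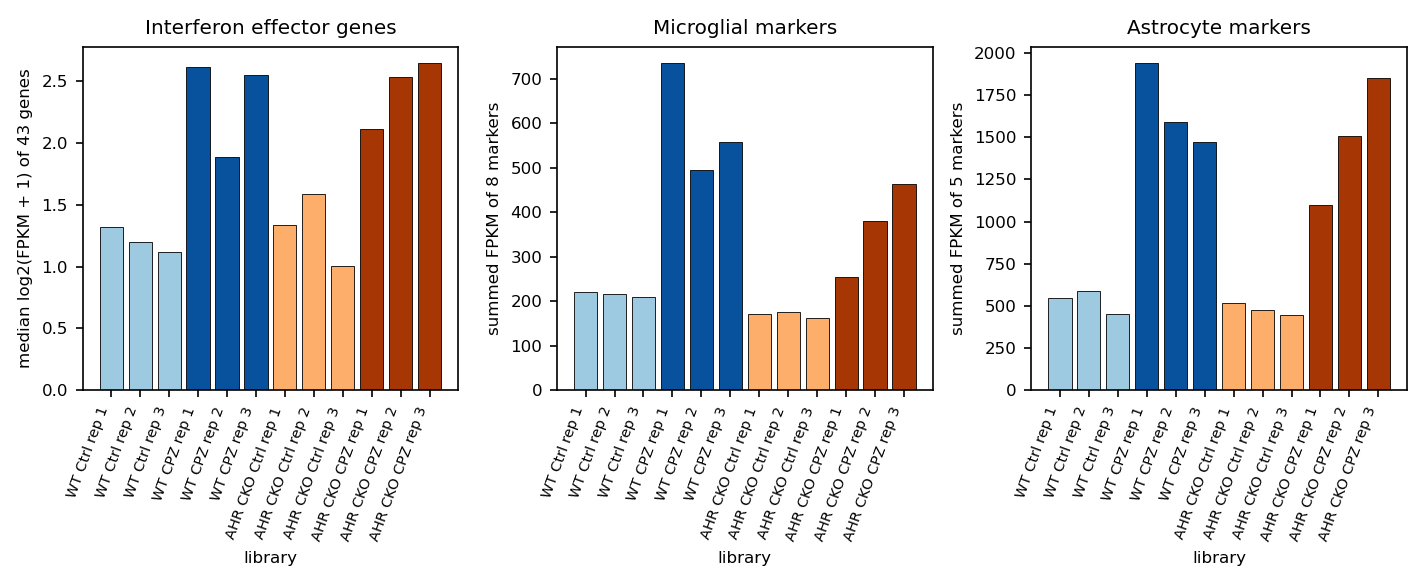
Per library (x axis), the median log2(FPKM + 1) of the 43 interferon effector genes (left), the summed FPKM of 8 microglial markers (middle) and the summed FPKM of 5 astrocyte markers (right), as bars from 0. WT CPZ replicate 2 is low in the left and middle panels at 1.89 and 495, and the AHR CKO CPZ bars are lower than the WT CPZ bars in the middle panel.

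Most listed markers of blood cells were not analysed here or were low. Of 11 T and NK cell markers 4 were in the table, summing to 3.497 to 20.3 FPKM in WT Ctrl, 3.48 to 6.67 in WT CPZ, 8.55 to 12.7 in AHR CKO Ctrl and 6.34 to 12.8 in AHR CKO CPZ, mostly Cd4. Cd3d, Cd3e and Cd3g were listed but not analysed here, so a sum that is mostly Cd4 does not give the level of T cells. Cd4 overlapped between the cuprizone groups, and its difference did not pass (1.18, limma adjusted p = 0.103). Of 8 monocyte and neutrophil markers 3 were in the table, at sums of 1.34 to 2.88 FPKM in WT CPZ and 1.58 to 3.40 in AHR CKO CPZ. The 6 border macrophage markers summed to 2.97 to 4.86 and 3.07 to 4.15 FPKM. Of 4 B and plasma cell markers none was analysed. Of 4 markers of plasmacytoid dendritic cells, the blood cells that make most interferon, only Cox6a2 was analysed. Without the other markers, Cox6a2 alone does not tell whether plasmacytoid dendritic cells were present. Cox6a2 stood at 10.8, 11.9 and 12.5 FPKM in WT Ctrl, 13.6, 14.9 and 10.3 in WT CPZ, 12.9, 22.1 and 20.9 in AHR CKO Ctrl and 22.3, 16.3 and 17.1 in AHR CKO CPZ. Its AHR CKO libraries lay above the WT libraries in control tissue and under cuprizone without overlap, and neither difference passed (0.59 and 0.49, adjusted p = 0.07696 and 0.0816). The 6 endothelial markers summed to 114 to 125 FPKM in WT Ctrl, 128 to 143 in WT CPZ, 121 to 153 in AHR CKO Ctrl and 101 to 132 in AHR CKO CPZ, and Flt1 was lower in AHR CKO CPZ than in WT CPZ (-0.56, adjusted p = 0.0133). The part of these cells in the interferon results was not tested.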

How the data were processed

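RNA of 12 corpus callosum samples was sequenced. The authors deposited 1 table of FPKM values per gene symbol and library, per the file headers. Reads were placed on GRCm38 (mm10), per the submitters' processing notes, while the aligner, quantifier, strand setting and annotation were not given in the sources used here. Each library had a smallest positive value between 1.31e-05 and 0.000502 FPKM, too low for 1 whole read, so counts were not rebuilt. All 12 sample columns were mapped by title, and 0 columns of samples were unused.

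A gene was tested if 3 or more of the 12 libraries had 1 FPKM or more. The test was limma 3.58.1 (R 4.3.3, moderated statistics with a trend in the prior variance) on log2(FPKM + 1), with the 4 groups as terms and all 12 libraries sharing 1 estimate of the spread. P-values are two-sided and adjusted by Benjamini-Hochberg over all 13759 tested genes within each comparison, with 0.05 as the threshold. Log2 changes on this scale understate those of low genes. Folds are ratios of mean FPKM. In data simulated for the WT cuprizone comparison on 13759 genes, the pipeline recovered 88% of genes changed by 1 on the log2 scale and 100% of those changed by 2. Of 198 calls, 10 were false. The changed genes were drawn from those with a mean log2(FPKM + 1) above 2. These shares thus do not cover lower members such as Oas2 and Mx1. Each size was given to 100 genes, while in the data 1249 genes were called higher and 1075 lower in this comparison. The share of false calls therefore need not carry over to the data. Promoter windows came from RefSeq (GRCm38.p6) and positions from GENCODE M21 (GRCm38).

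The members, roles, pathway lists and markers were chosen with earlier results of these data known. In each role group and comparison, up to 3 members of smallest adjusted p were named, and those that differed from most of their group. Library values were printed for 15 members and for up to 10 members called between genotypes. Some members were named beyond this, and some listed genes outside the members are not reported here by name. Alternatives tried were testing all genes, a mean FPKM of at least 5, a pseudocount of 0.1, median-of-ratios scaling, quantile normalization, no trend, the replicate block, only the groups compared, and each library left out in turn. After the data were seen, the fit without 3 libraries of low Cx3cr1 was added.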

Additional observations from a re-analysis of the deposited data

How the results depend on the processing

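Median-of-ratios scaling, quantile normalization and no trend kept the number of members called within 1.5 times that of the main analysis in each of the 5 comparisons, and no alternative called a member lower. Under a mean FPKM of at least 5 only 15 members were tested, of which 11 were called higher with cuprizone in WT, 14 with cuprizone in AHR CKO and 8 in AHR CKO against WT under cuprizone. A pseudocount of 0.1 gave 8 members higher in AHR CKO under cuprizone and 1 in control tissue, Ifi44 (adjusted p = 0.0450). The count between genotypes under cuprizone was 10 with no filter and 9 with only the groups compared. Without the 3 libraries of low Cx3cr1 it was 3, and the count with cuprizone in AHR CKO was 18. These 2 counts rest on fewer libraries. The median log2 difference of the members between genotypes under cuprizone was then 0.46, against 0.36 in the main analysis. Their median log2 change with cuprizone in AHR CKO was 1.20, against 1.25. Beyond the number of libraries, the cause of these shifts was not tested. With each library left out in turn the counts of members called higher ranged from 20 to 38 in WT, 33 to 43 in AHR CKO, 0 to 0 between genotypes in control tissue, 5 to 14 under cuprizone and 0 to 1 for the interaction. Of 4332 values of 1 member, comparison and alternative, 0 called differences changed sign, and 154 differences called under neither setting did. Each of the 15 genotype calls under cuprizone was lost under at least 1 alternative, while 20 of 31 calls in WT and 18 of 43 in AHR CKO were kept under each alternative in which the gene was tested. Marker genes were not refitted one by one under these alternatives.

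The replicate numbers showed no sign of pairing the samples, and the labels state no pairing. Over 18 pairs of libraries with the same number, deviations from the group means correlated at −0.34 to 0.25 across genes, above 0.1 in 3 pairs. Pairs with different numbers reached −0.40 and 0.44. With means of 3 libraries, this check cannot exclude a pairing. With the replicate number as a block, 28 members were called higher with cuprizone in WT, 40 in AHR CKO, 0 between genotypes in control tissue, 9 under cuprizone and 0 for the interaction.

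The read number behind these FPKM values is unknown, so no interval for counting error can be given. With 3 libraries a group, an effect near the spread between libraries could not be called, and low members such as Mx1 and Rsad2 lie close to the filter. Which cells carried the transcripts cannot be told from bulk tissue.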
